A study of Oryza sativa with 6 samples.

Results

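The genes described here are the 84 rice haem peroxidase genes whose transcripts were scarce in wild-type root tips. They were taken from the 161 genes that the deposited table of 56962 genes describes as haem peroxidase, by a mean below 5 CPM (a gene's counts divided by the library's total and multiplied by 1e6) over the 3 wild-type libraries, with 7 loci left out by name. The 7 loci left out were listed as ascorbate peroxidases. Another 70 haem peroxidase genes lay at or above that level. RNA was sequenced from the terminal 0.5 cm of roots of Oryza sativa seedlings kept at 25°C, 6 days after sprouting, in 3 libraries of the wild type J10 and 3 of the mutant lad, also named sr1. The sources used here do not give the mutated locus, the allele, or whether roots were pooled, and beyond genotype the groups share age, temperature, tissue and kit. Wild-type levels chose the 84 genes, so they are given as a description. Each test below sets the mutant libraries against those same wild-type libraries. The choice of low values on that side favours increases, and the single-gene p-values do not allow for it. The closest gene under the limit, LOC_Os07g44550, had 4.32 CPM of the library total in the wild type, followed by LOC_Os04g53640 with 3.98 and LOC_Os06g32990 with 3.64. Just above it lay LOC_Os03g25280 with 5.10, LOC_Os07g44590 with 5.46 and LOC_Os01g73170 with 5.71.

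Haem peroxidases use hydrogen peroxide to oxidise other molecules. In plants most belong to a large secreted family that works in the cell wall and vacuole, where it couples monolignols into lignin, cross-links wall proteins and phenolics, and can also produce or consume reactive oxygen. In grass genomes the family has grown by tandem duplication, so that many copies stand side by side. The deposited description is a domain name that also covers relatives outside the secreted family, and it assigns no substrate or cell type to any single gene. Genes are therefore named by locus, with the table's own coordinates, for which no rice genome build is named.

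The 6 libraries held 16405022 to 20693114 counts, and 47 to 54 of the 84 genes had at least 1 count in any of them. The root meristem markers SHR1 (LOC_Os07g39820), SCR1 (LOC_Os11g03110), QHB (LOC_Os01g63510), PLT1 (LOC_Os04g55970) and PLT2 (LOC_Os06g44750), by their published rice names, were all detected, with wild-type means of 13.3 to 69.1 CPM. The 3 rubisco small-subunit genes that mark leaf summed to at most 1.19 CPM in any library. Here and below, CPM are scaled by TMM factors unless the library total is named. Values that follow in a series of 3 are replicates 1, 2 and 3 of a genotype.

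In the mutant tips 15 of the 84 genes rose and 9 fell. Among the increases LOC_Os05g06970 went from 2.15 ± 0.537 to 54.5 ± 9.44 CPM and LOC_Os06g16350 from 1.01 ± 0.401 to 36.6 ± 5.97 CPM, and among the decreases LOC_Os01g18950 fell from 3.32 ± 0.711 to 0.222 ± 0.0687 CPM (means with SD over the n = 3 libraries of each genotype, as in all later values of this form). Of the 84, 38 passed the expression filter and were tested, and 14 of these did not pass the threshold of 0.05 on the adjusted p (edgeR quasi-likelihood, Benjamini-Hochberg over all 22624 tested genes). Over all tested genes 45.2% changed, 24.9% rising and 20.3% falling. Among the 7127 tested genes that share the same wild-type limit of 5 CPM, 36.3% rose and 5.84% fell, against 39.5% and 23.7% of the 38. A gene this low in the wild type can pass the filter through its mutant counts alone. Of the 38, 9 were under the filter level in at least 1 wild-type library, of which 6 rose, 0 fell by the edgeR test and 3 did not pass. The 6 that rose were over that level in all 3 mutant libraries, which alone met the filter. They were LOC_Os07g48060, LOC_Os01g73200, LOC_Os01g22352, LOC_Os03g25340, LOC_Os09g36750 and LOC_Os12g26290, and their tests are not independent of the filter. Of the 29 that were over the filter level of 0.528 CPM in all 3 wild-type libraries, 9 rose, 9 fell and 11 did not pass, with a median log2 fold change of -0.15. The counts describe a list chosen on one of the compared groups, and nothing is read from them about the list. The labels do not say whether the libraries of a genotype came from separate cultures, so p-values measure the spread between these libraries, which may be technical. In bulk tips, a change in the number of cells of a type and a change in RNA per cell cannot be told apart.

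**Figure D1:**
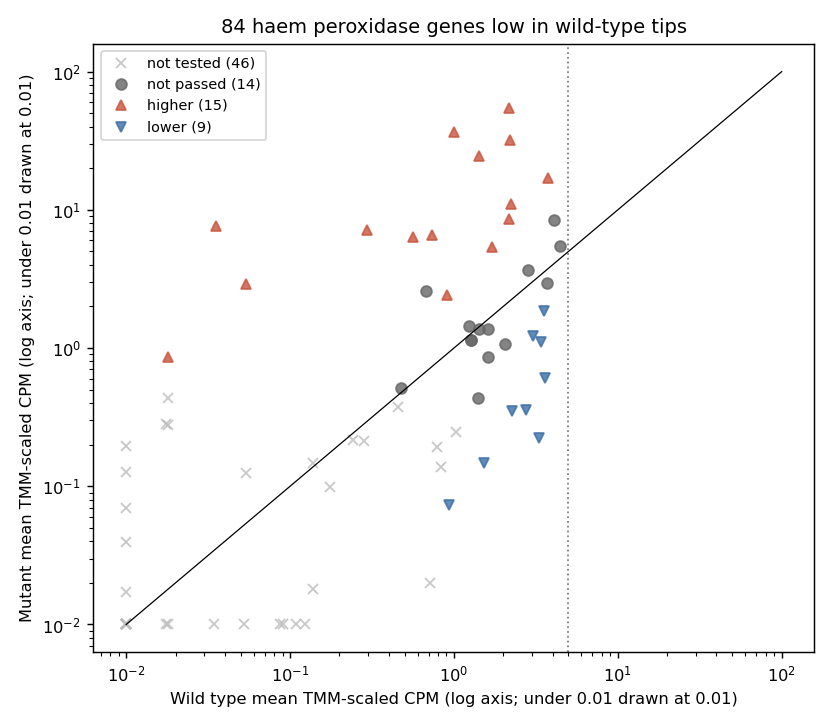
Mean wild-type level (horizontal) against mean mutant level (vertical) of the 84 genes, in TMM-scaled CPM on log axes, with equality as a solid line and the wild-type limit of 5 CPM dotted. The 15 genes that rose lie above the line and extend to 54.5 CPM, the 9 that fell lie below it, and 46 crosses mark genes that were not tested.

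The 3 genotype values did not overlap for 25 of the 38 tested genes: the mutant lay wholly above for 15, where 30.2% of all tested genes do so, and wholly below for 10, where 26.6% do so. All 15 genes that rose and all 9 that fell were among these. The tenth gene below, LOC_Os08g20730, did not pass the test (1.61 ± 0.200 and 0.865 ± 0.231 CPM, adjusted p = 0.0899, edgeR). It was chosen for mention after its values were seen.

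The largest mutant level belonged to LOC_Os05g06970 (chromosome 5, 3645870 to 3648069, minus strand), which stands apart from other haem peroxidase genes. It measured 1.80, 2.77 and 1.89 CPM in the wild-type libraries and 61.9, 43.9 and 57.8 CPM in the mutant libraries. Its lowest mutant value was far above its highest wild-type value, and the log2 fold change, mutant minus wild type as in all that follow, was 4.66 ± 0.21 (SE; adjusted p = 1.63e-07, edgeR). LOC_Os06g16350 (chromosome 6, 9325990 to 9328211, minus strand), also alone at its position, had 0.566, 1.10 and 1.35 CPM in the wild type against 35.5, 31.2 and 43.0 in the mutant. This was a log2 change of 5.18 ± 0.26 (adjusted p = 3.17e-07, edgeR), and it was the larger of the 2 in relative terms although its level was lower.

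Next in mutant level came a pair of genes near the ends of chromosomes 11 and 12, regions known to carry a shared duplicated segment. LOC_Os12g02060 (chromosome 12, 614316 to 615845, plus strand) had 3.29, 1.78 and 1.51 CPM in the wild type and 37.3, 26.0 and 32.3 CPM in the mutant. LOC_Os11g02100 (chromosome 11, 571319 to 573072, plus strand) had 1.65, 1.52 and 1.08 CPM and then 31.5, 17.3 and 25.1 CPM. In both genes mutant replicate 2 was the lowest of the 3 mutant libraries and still over 5 times the highest wild-type value. The log2 changes were 3.85 ± 0.27 (adjusted p = 2.21e-06, edgeR) and 4.12 ± 0.27 (adjusted p = 1.57e-06). Each has a haem peroxidase neighbour that was above 5 CPM in the wild type and also rose, LOC_Os12g02080 from 9.83 ± 0.370 to 32.8 ± 0.211 CPM and LOC_Os11g02130 from 6.01 ± 0.704 to 18.3 ± 4.74 CPM. Where copies are nearly identical, the authors' counting could have split or shared reads between them, so the separate values of such pairs are uncertain.

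A further 2 genes that stand alone rose to lower levels. LOC_Os12g26290 (chromosome 12, 15330146 to 15340505, minus strand), whose annotated length of 2899 bases exceeds the median of 1294 bases of the 84 genes, had 0.463, 1.10 and 0.648 CPM in the wild type and 7.79, 6.36 and 5.44 CPM in the mutant. Its log2 change was 3.14 ± 0.35 (adjusted p = 4.99e-05, edgeR). LOC_Os09g36750 (chromosome 9, 21199731 to 21202763, minus strand), with a length of 836 bases, had 0.309, 0.837 and 0.540 CPM and then 5.30, 4.64 and 9.01 CPM. Mutant replicate 3 stood above the other mutant libraries for this gene, and the log2 change was 3.48 ± 0.42 (adjusted p = 8.29e-05).

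The remaining 6 genes that rose and reached at least 5 CPM in the mutant lie in arrays, meaning runs of haem peroxidase genes whose starts are within 50 kb of the next. LOC_Os04g59190 had 1.23, 5.70 and 4.27 CPM in the wild type and 17.7, 18.7 and 14.4 CPM in the mutant. Wild-type replicate 1 was far below the other wild-type libraries, yet every mutant library lay above all of the wild type (log2 change 2.18 ± 0.39, adjusted p = 0.00116, edgeR). LOC_Os07g48020 had 3.14, 1.31 and 2.27 CPM and then 10.1, 15.3 and 7.41 CPM (2.28 ± 0.35, adjusted p = 0.000444). LOC_Os05g04490 had 3.24, 1.15 and 2.11 CPM and then 8.55, 7.67 and 9.53 CPM (1.98 ± 0.33, adjusted p = 0.000688). In these last 2 genes wild-type replicate 1 was the highest wild-type library and replicate 2 the lowest. LOC_Os03g55410 showed the smallest increase of the 6, from 1.44, 2.30 and 1.40 CPM to 3.84, 6.06 and 6.32 CPM (1.65 ± 0.32, adjusted p = 0.00184).

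LOC_Os03g25340 varied widely among the mutant libraries. It measured 0.566, 0.209 and 0.108 CPM in the wild type and 8.01, 12.0 and 1.40 CPM in the mutant, so mutant replicate 3 was well below the other mutant libraries but above every wild-type one. The log2 change of 4.55 ± 0.79 (adjusted p = 0.00100, edgeR) became 5.40 without wild-type replicate 1 and 3.95 without mutant replicate 2, and it passed the threshold when any 1 library was left out (adjusted p at most 0.00687).

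Several genes went from almost no counts to a measurable level. The 3 given here were over the filter level in 0 wild-type and 3 mutant libraries, so only their mutant counts brought them to the test. They were also chosen for low wild-type values, and their p-values allow for neither. LOC_Os07g48060 (chromosome 7, 28690608 to 28692640, minus strand) had 1, 0 and 1 wild-type counts and 133, 86 and 207 mutant counts, or 7.19, 5.11 and 10.7 CPM. The ratio of mutant to wild type in pooled counts was 223, with a 95% counting interval from 61.2 to 1844 (exact binomial). The edgeR estimate was smaller, a log2 change of 7.53 ± 0.58 or 184-fold (adjusted p = 3.88e-06). With so few wild-type counts, the pooled ratio fell to 148 without wild-type replicate 2, which held none of them. It was 294 and 301 without replicates 1 and 3. LOC_Os01g73200 had 0, 1 and 2 wild-type counts and 60, 43 and 57 mutant counts, a pooled ratio of 55.7 (18.7 to 273). That ratio moved to 36.7 without wild-type replicate 1 and to 113 without replicate 3. The edgeR log2 change was 5.62 ± 0.61 (adjusted p = 4.17e-05). LOC_Os01g22352 had 0, 0 and 1 wild-type counts and 16, 12 and 19 mutant counts, a pooled ratio of 49.1 (8.40 to 1981). Its edgeR log2 change was 5.15 ± 0.86 (adjusted p = 0.000766). Without wild-type replicate 1 or 2 the ratio was 32.4 or 32.7, and without replicate 3, which held the only wild-type count, the gene was at least 11.1-fold higher against a floor of 3 counts over the group. Such intervals pool the libraries of a genotype, so they cover counting error only and leave out the spread between libraries. Amplified reads that carry no molecular identifier can come from the same molecule, so even the counting error may be larger. None of the 5 genes of the list that had counts in the mutant and 0 in the wild type was among those tested.

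The least firm increase was that of LOC_Os07g49360, with 1.29, 0.575 and 0.865 CPM in the wild type and 3.62, 2.14 and 1.45 CPM in the mutant (log2 change 1.40 ± 0.46, adjusted p = 0.0299, edgeR). Its call was lost without wild-type replicate 2 or 3 (adjusted p = 0.0892 and 0.0863) and without mutant replicate 1 (0.157). LOC_Os01g73200, LOC_Os01g22352 and LOC_Os07g49360 stayed below 5 CPM in the mutant and are named after their values were seen, which completes the 15.

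**Figure D2:**
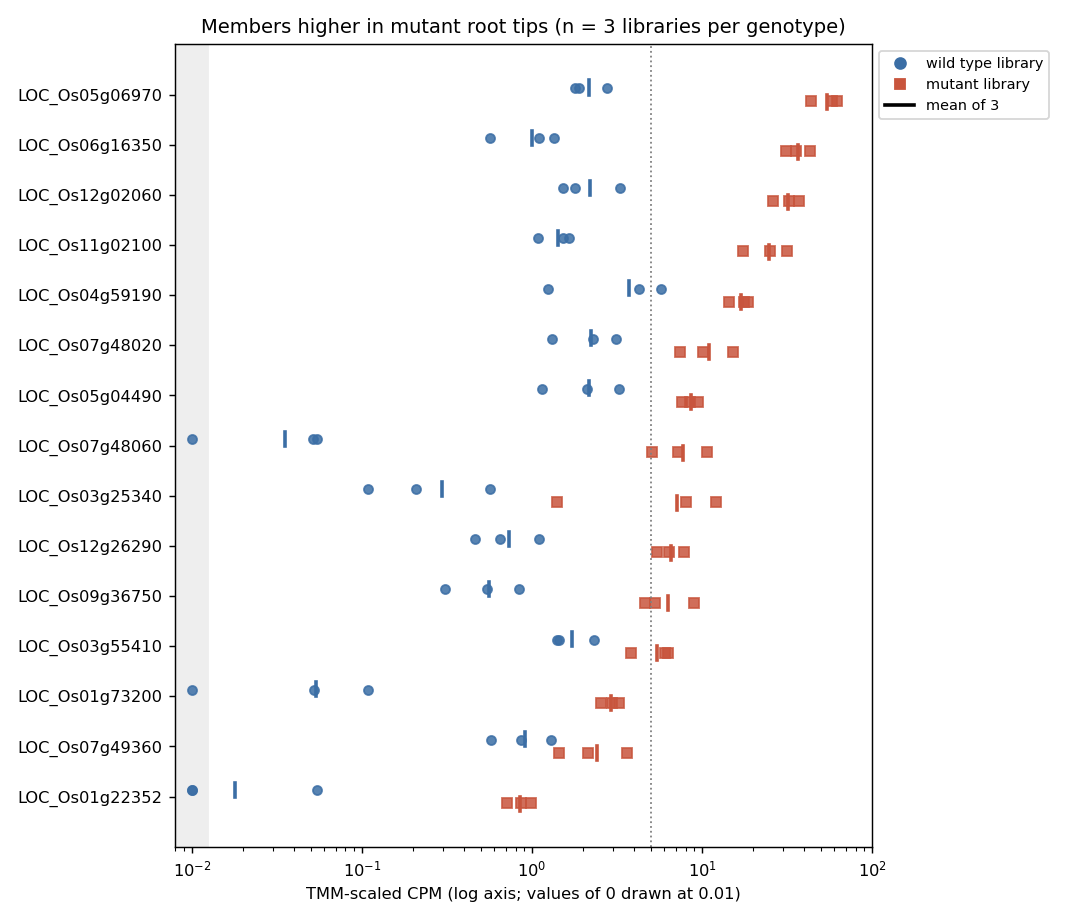
TMM-scaled CPM (log axis) of the 15 genes that rose, with a circle for each wild-type library, a square for each mutant library and a bar at the mean of 3; values of 0 are drawn at 0.01 in the grey strip and the dotted line marks 5 CPM. No gene shows overlap between genotypes, and 12 have a mutant mean of at least 5 CPM.

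All 9 genes that fell lie in arrays. The strongest decrease was on chromosome 1, where LOC_Os01g18950 (10713139 to 10714271, minus strand) had 3.14, 2.72 and 4.11 CPM in the wild type and 0.162, 0.297 and 0.207 CPM in the mutant. The log2 change was -3.87 ± 0.43 (adjusted p = 5.04e-05, edgeR), a level 14.7-fold lower. In the same array LOC_Os01g18910 had 18, 20 and 15 counts in the wild type and 2, 1 and 1 in the mutant (-3.55 ± 0.62, adjusted p = 0.00100). Both genes had single-digit counts in every mutant library.

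On chromosome 9 a pair of neighbours on opposite strands fell together. LOC_Os09g15500 (9486055 to 9487124, plus strand) had 2.47, 2.67 and 3.08 CPM in the wild type and 0.703, 0 and 0.363 CPM in the mutant. Its log2 change was -2.90 ± 0.65 (adjusted p = 0.00442, edgeR) and became -3.80 without mutant replicate 1, the only mutant library with more than 7 counts. LOC_Os09g15510 (9490521 to 9492544, minus strand) had 1.90, 1.57 and 1.08 CPM and then 0.108, 0.178 and 0.155 CPM (-3.31 ± 0.53, adjusted p = 0.000600).

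Among the other decreases, LOC_Os07g44480 had 4.42, 3.40 and 2.92 CPM in the wild type and 0.595, 0.297 and 0.932 CPM in the mutant (log2 change -2.53 ± 0.42, adjusted p = 0.000785, edgeR). LOC_Os03g25300 had 2.98, 1.67 and 2.11 CPM and then 0.541, 0.297 and 0.207 CPM (-2.67 ± 0.49, adjusted p = 0.00128). LOC_Os05g04450 had 4.63, 2.77 and 2.81 CPM and then 1.03, 1.19 and 1.09 CPM (-1.62 ± 0.35, adjusted p = 0.00330). The mutant libraries were close to each other for this last gene, and in all 3 genes wild-type replicate 1 was the highest.

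The remaining 2 decreases depended on single libraries. LOC_Os03g25370 had 4.37, 1.57 and 3.19 CPM in the wild type and 0.811, 1.49 and 1.35 CPM in the mutant (log2 change -1.32 ± 0.43, adjusted p = 0.0292, edgeR). Its lowest wild-type and highest mutant values nearly touch, and the call was lost without wild-type replicate 1 or 3 (adjusted p = 0.0939 and 0.0793) or mutant replicate 1 or 3 (0.105 and 0.0662). LOC_Os06g35490 had 3.70, 3.24 and 3.67 CPM and then 1.24, 2.14 and 2.18 CPM (-0.93 ± 0.31, adjusted p = 0.0318). That call was lost without wild-type replicate 1 or 3 (0.0541 and 0.0943), without mutant replicate 1 (0.104) and when libraries were scaled by their totals (0.0519). LOC_Os01g18910, LOC_Os03g25300 and LOC_Os09g15510 have the lowest wild-type levels of the 9 and were named after their values were seen.

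**Figure D3:**
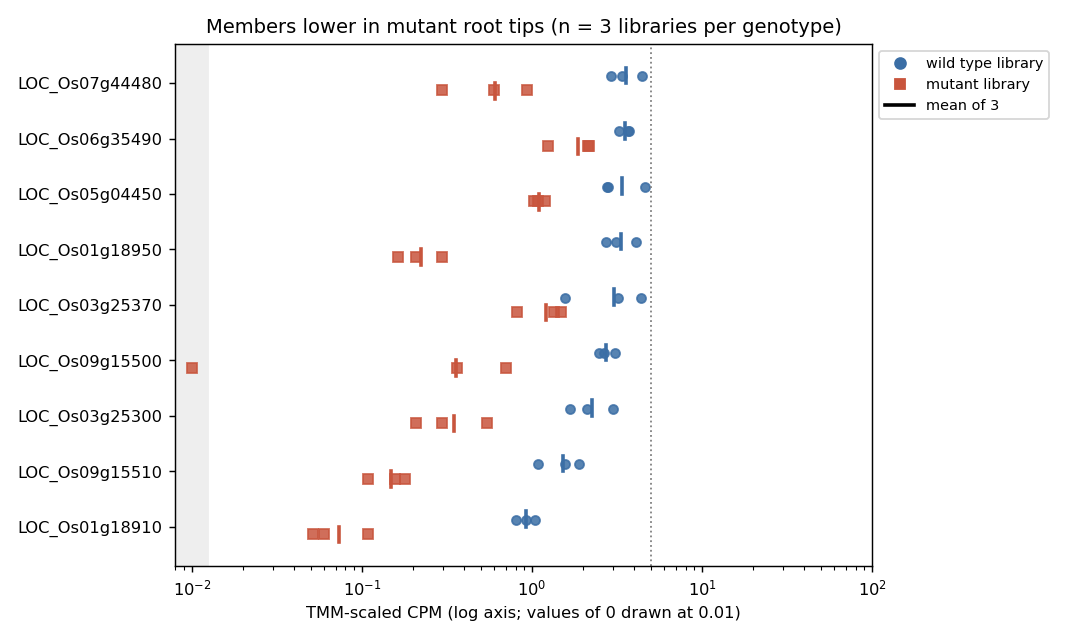
TMM-scaled CPM (log axis) of the 9 genes that fell, drawn as for the genes that rose: circles are wild-type libraries, squares mutant libraries, bars means of 3, and a value of 0 sits at 0.01 in the grey strip. Every mutant value lies left of every wild-type value of its gene, with the narrowest gap in LOC_Os03g25370, and the 0 belongs to mutant replicate 2 of LOC_Os09g15500.

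Of the 14 tested genes that did not pass, the most abundant was LOC_Os04g53640, with 5.71, 3.71 and 2.81 CPM in the wild type and 14.8, 6.06 and 4.30 CPM in the mutant. Mutant replicate 1 was well above the other mutant libraries, the genotypes overlapped, and the log2 change was 1.04 ± 0.43 (adjusted p = 0.0732, edgeR). This gene did pass with DESeq2 (adjusted p = 0.0354) and in several other settings, and without mutant replicate 1 its log2 change was 0.34. LOC_Os07g44550 had 5.30, 3.35 and 4.65 CPM and then 6.87, 5.71 and 3.94 CPM (0.31 ± 0.28, adjusted p = 0.386), and LOC_Os06g32990 had 4.63, 2.25 and 4.27 CPM and then 2.33, 2.20 and 4.35 CPM (-0.32 ± 0.37, adjusted p = 0.504). Both overlap widely between genotypes. Others near the threshold varied widely within a genotype. LOC_Os06g48010 had 0.463, 1.47 and 0.108 CPM in the wild type with mutant values of 4.71, 0.713 and 2.28 CPM (log2 change 1.91 ± 0.78, adjusted p = 0.0688, edgeR), and LOC_Os11g10460 had 0.411, 2.14 and 1.67 CPM and then 0.595, 0.238 and 0.466 CPM (-1.68 ± 0.63, adjusted p = 0.0521). In each of the 2 a single wild-type library overlaps the mutant range. LOC_Os06g48010 passed without wild-type replicate 2 (log2 change 3.11, adjusted p = 0.0126) or mutant replicate 2 (0.0213), and its log2 change was 1.14 without mutant replicate 1. LOC_Os11g10460 passed without wild-type replicate 1 (-2.14, adjusted p = 0.00516). Several further genes sat near 1 CPM in both genotypes, among them LOC_Os01g18890, with 1.08, 1.46 and 1.73 CPM and then 1.30, 1.01 and 1.81 CPM. These 3 were named after their values were seen. For all 14 the absolute log2 change ranged from 0.05 to 1.91, and a p that misses the threshold does not show that the levels were equal.

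The other 46 genes were too low to test. Of these, 19 had 0 counts in all 6 libraries, which allows a level of up to 0.0269 CPM by a floor of 3 counts over the pooled depth. This floor covers depth only, and how the authors counted reads shared by nearly identical copies is not known. The 19 genes with 0 counts are spread over both settings, 9 in arrays and 10 alone. Their median annotated length was 1026 bases, against 1311 for the 65 genes with counts and 1430 for the 70 haem peroxidase genes above the limit. The 27 low genes with counts had 1 to 73 counts in total, and in 9 of them all counts came from 1 library. Adjacent genes LOC_Os06g32960 and LOC_Os06g32980, for example, had 5 and 6 counts, all in wild-type replicate 3, and the 7 counts of LOC_Os04g01550 were all in mutant replicate 1. Without the filter 3 of the 27 were called: LOC_Os06g29470 had 9, 27 and 5 wild-type counts and 0, 1 and 0 mutant counts (adjusted p = 0.00448, edgeR), LOC_Os07g34670 had 14, 9 and 24 and then 1, 0 and 7 (adjusted p = 0.0430), and LOC_Os07g48010 had 0, 0 and 1 and then 4, 13 and 6 (adjusted p = 0.0240). These 6 loci were chosen after their values were seen. For LOC_Os06g29470 the ratio of wild type to mutant was 39.2, with a counting interval from 6.66 to 1587. It was 20.1 without wild-type replicate 2, 26.0 and 25.4 without mutant replicates 1 and 3, and at least 9.05 without mutant replicate 2, which held the only mutant count.

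Position was not used to choose the genes, and 54 of the 84 lie in 23 arrays. Of these 54, 11 rose, 9 fell, 7 did not pass and 27 were not tested, while of the 30 genes that stand alone 4 rose, 0 fell by the edgeR test, 7 did not pass and 19 were not tested. Neighbours in an array often share sequence and may share reads, so they are not independent observations. The split of calls by position was not tested, and nothing is read from it. In 2 arrays the 84 genes included some that rose and some that fell. Over all haem peroxidase genes, whatever their level, 7 of the 30 arrays held both directions. Counting adjacent haem peroxidase genes in which both changed and at least 1 is among the 84, there were 15 such pairs, 12 with the same direction and 3 with opposite directions. Pairs without any of the 84 were left out, among them pairs with opposite directions. The share over all adjacent genes was not taken, so nothing is read from these pair counts.

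The array of 6 genes on chromosome 1 (10679488 to 10750234) held LOC_Os01g18910 and LOC_Os01g18950 together with LOC_Os01g18970, a more abundant gene that fell from 24.3 ± 4.91 to 3.50 ± 0.562 CPM. At its end LOC_Os01g19020 did not pass (480 ± 63.3 and 478.5 ± 84.2 CPM, adjusted p = 0.979, edgeR), and between the falling genes LOC_Os01g18930 had 0 counts in every library. LOC_Os01g18890, the first gene, did not pass either (adjusted p = 0.937, edgeR). Levels thus ranged from 0 counts to 480 CPM within 70.7 kb.

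The array of 7 genes on chromosome 3 (14436110 to 14505973) moved in both directions. The first 3, LOC_Os03g25280, LOC_Os03g25300 and LOC_Os03g25320, fell, the last of them from 13.8 ± 3.08 to 4.77 ± 0.696 CPM. LOC_Os03g25330 rose from 36.8 ± 13.1 to 113 ± 24.3 CPM (adjusted p = 0.000374, edgeR), next to LOC_Os03g25340, which rose as given above. LOC_Os03g25370 at the far end fell, and LOC_Os03g25360 was not tested, with 26, 9 and 10 wild-type counts and 2, 7 and 1 mutant counts.

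The array on chromosome 5 (2010115 to 2082760, 7 genes) was mixed as well. LOC_Os05g04450 fell beside LOC_Os05g04440, which went from 34.9 ± 4.20 to 5.20 ± 2.84 CPM, whereas LOC_Os05g04490 and the abundant LOC_Os05g04380 and LOC_Os05g04410 rose. LOC_Os05g04410 went from 37.1 ± 9.54 to 126 ± 23.7 CPM, while the call of LOC_Os05g04380 was lost without wild-type replicate 3 (adjusted p = 0.0817) or mutant replicate 1 or 3 (0.0556 and 0.0744). The other 2 genes of this chromosome 5 array did not pass. In the array of 6 genes at 26557312 to 26618066 on chromosome 7, LOC_Os07g44480 fell between LOC_Os07g44460 (17.9 ± 4.66 to 2.35 ± 0.252 CPM) and LOC_Os07g44499 (7.41 ± 1.93 to 0.860 ± 0.336 CPM). Of the other genes there, 2 did not pass and 1 was not tested.

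Further along chromosome 7 (28660188 to 28692640) a run of 7 genes held scarce and abundant copies and some with 0 counts. Its first gene, LOC_Os07g47990, fell from 311 ± 50.7 to 184 ± 43.6 CPM (adjusted p = 0.00515, edgeR). LOC_Os07g48020 and LOC_Os07g48060 rose as given above, LOC_Os07g48030 did not pass (25.0 ± 9.07 and 32.5 ± 3.82 CPM, adjusted p = 0.202, but 0.0164 without wild-type replicate 1), and LOC_Os07g48040 and LOC_Os07g48050, between them, had 0 counts in all 6 libraries. On chromosome 4 (35187373 to 35246738) LOC_Os04g59190 rose in the same array as LOC_Os04g59150, which went from 317 ± 81.7 to 897 ± 182 CPM. LOC_Os04g59200, between members, had 0 counts, and the other 3 genes of that array did not pass.

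A run of 5 genes on chromosome 1 (12499923 to 12582301) held LOC_Os01g22352, which rose between a pair of more abundant genes that fell, LOC_Os01g22336 from 30.8 ± 3.98 to 13.5 ± 2.10 CPM (adjusted p = 0.000154, edgeR) and LOC_Os01g22370 from 28.4 ± 4.01 to 21.7 ± 1.61 CPM (adjusted p = 0.0384). These are 2 of the 3 pairs with opposite directions. The decrease of LOC_Os01g22370 was lost with library totals (adjusted p = 0.0902), without wild-type replicate 2 or 3 (0.132 and 0.0776) and without mutant replicate 1, 2 or 3 (0.0514, 0.0965 and 0.0945). In the same array LOC_Os01g22249 had 0 counts in every library, and the remaining 1 gene did not pass.

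Several called genes lie in shorter arrays. On chromosome 3 LOC_Os03g55410 rose beside LOC_Os03g55420, which went from 21.7 ± 0.240 to 39.9 ± 3.78 CPM (adjusted p = 0.000151, edgeR). On chromosome 6 LOC_Os06g35490 fell in an array where LOC_Os06g35520 rose from 84.6 ± 15.4 to 175 ± 29.6 CPM (adjusted p = 0.000382) and LOC_Os06g35480 did not pass (29.4 ± 4.52 and 33.6 ± 8.40 CPM). On chromosome 1 (42429502 to 42447654) LOC_Os01g73200 shared its array with LOC_Os01g73170, which rose from 5.88 ± 0.366 to 15.1 ± 5.45 CPM, and with 2 genes that were not tested. Of these, LOC_Os01g73190 had 4, 0 and 3 wild-type counts and 0 mutant counts, and LOC_Os01g73220 had 0, 0 and 1 and then 2, 6 and 7. LOC_Os07g49360 neighbours LOC_Os07g49400, one of the loci left out as ascorbate peroxidases, which rose from 490.5 ± 38.5 to 822 ± 112 CPM (adjusted p = 0.00136). That array holds only these 2 genes, so LOC_Os07g49360 counts as an array gene through a left-out locus alone.

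**Figure D4:**
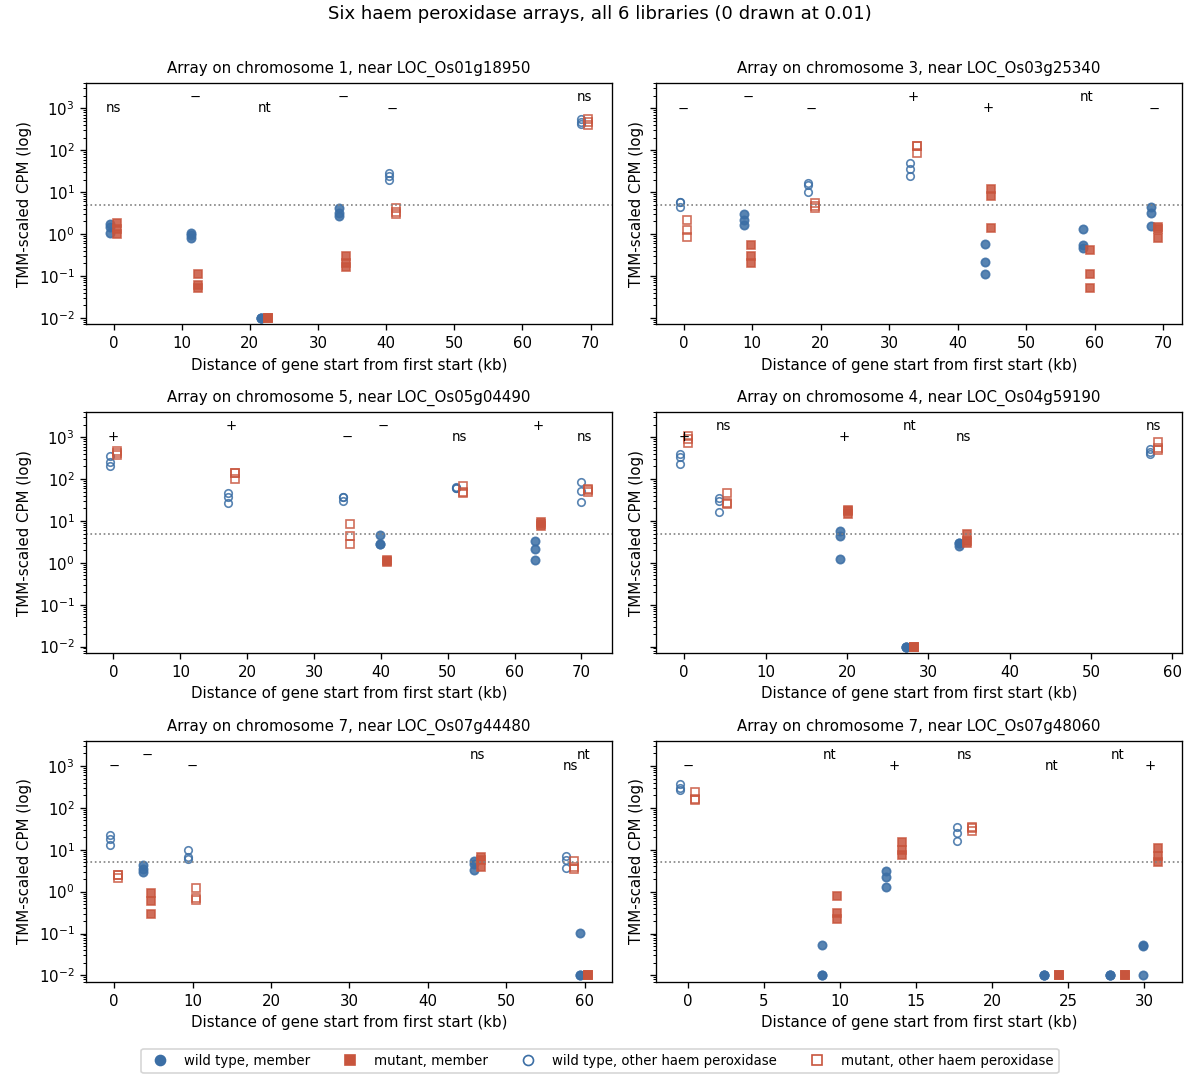
TMM-scaled CPM (log axis, 0 drawn at 0.01) in all 6 libraries of the haem peroxidase genes in 6 arrays, placed by distance of each gene start from the first start in kb; blue circles are wild-type and red squares mutant libraries, filled for the 84 genes and open for other haem peroxidase genes, and the dotted line marks 5 CPM. Signs above each gene give the edgeR call (+ rose, − fell, ns not passed, nt not tested). All changed genes point down in the chromosome 1 array and in the chromosome 7 array with LOC_Os07g44480. Both directions occur in the arrays of chromosomes 3 and 5 and in that with LOC_Os07g48060. Genes with 0 counts share arrays with the abundant LOC_Os01g19020, LOC_Os04g59150 and LOC_Os07g47990.

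Summed over the 84 genes, the level was 84.6, 72.8 and 73.8 CPM in the wild-type libraries and 293.7, 236 and 265 CPM in the mutant libraries. The 84 genes thus made up 1.04 ± 0.0581% of the CPM of all 154 haem peroxidase genes in the wild type and 3.81 ± 0.330% in the mutant. The 5 most abundant held 58.1 to 65.1% of the sum in each mutant library and 26.7 to 29.2% in each wild-type library, so the mutant sum rests on few genes. The sum of the other 70 genes was 7322 ± 208 CPM in the wild type and 6694 ± 588 CPM in the mutant. No test was made on these sums, because the wild-type level chose the genes.

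Per kb of annotated length, the 4 genes with the highest mutant levels per kb moved well up the family's order. LOC_Os05g06970 went from rank 86 to rank 27 of 154, with 37.6 CPM per kb in the mutant, LOC_Os12g02060 from 81 to 29 (36.4 CPM per kb), LOC_Os06g16350 from 97 to 34 (27.6) and LOC_Os11g02100 from 92 to 42 (20.8). The 3 genes that started from almost no counts ended lower, LOC_Os07g48060 at rank 64, LOC_Os01g73200 at 81 and LOC_Os01g22352 at 96. The median of the 70 more abundant genes was 23.4 CPM per kb in the mutant, so the first 3 of these lay above it and LOC_Os11g02100 below. In the upper 77 ranks there were 7 of the 84 genes in the wild type and 13 in the mutant. The choice by wild-type level set the 84 low in the wild-type order and favoured moves upward. The ranks are therefore a description, and nothing is read from them about the list.

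The 70 haem peroxidase genes above the limit were all tested, and 16 rose, 33 fell and 21 did not pass, with a median log2 change of -0.36. The choice of higher values on the wild-type side favours decreases, so nothing is read from these counts about the 70 genes. Laccases, which also oxidise monolignols, were compared together with other multicopper oxidases. This list, which is not limited to laccases, held 48 described genes, of which 32 were tested. Of those 9 rose, 14 fell and 9 missed the threshold, and the median log2 change was -0.53. Over all tested genes, whatever their wild-type level, 24.9% rose and 20.3% fell, and the median was 0.02. Among the multicopper oxidases LOC_Os01g61160 rose from 0.874 ± 0.291 to 21.9 ± 5.48 CPM (adjusted p = 9.31e-07, edgeR) and LOC_Os07g02810 fell from 262 ± 7.91 to 141 ± 8.72 CPM (adjusted p = 5.88e-05). Superoxide dismutases, which make hydrogen peroxide from superoxide, had 8 tested genes of 9, with 1 higher (LOC_Os07g46990, from 47.9 to 85.5 CPM), 1 lower (LOC_Os06g02500, from 15.5 to 11.8 CPM, adjusted p = 0.0480) and 6 not passed. The decrease of LOC_Os06g02500 was lost without any 1 of the 6 libraries (adjusted p from 0.0598 to 0.151) and under scaling by library totals (0.128). Of the 7 haem peroxidase loci left out of the list, 3 rose, 0 fell by the edgeR test and 4 did not pass. These 4 superoxide dismutase and multicopper oxidase loci were named after their values were seen.

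Markers of other root tissues also differed between the genotypes, and their part in the changes above was not tested. Lsi1 (LOC_Os02g51110) and Lsi2 (LOC_Os03g01700), the published names of silicon transporters of the exodermis and endodermis, both rose, and their sum was 214 to 421 CPM in the wild type and 736 to 943 CPM in the mutant. Of 3 genes tied to root hairs, RHL1 (LOC_Os06g08500) fell from 19.1 ± 1.10 to 5.78 ± 1.25 CPM and EXPA17 (LOC_Os06g01920) from 6.90 ± 1.74 to 1.12 ± 0.256 CPM, whereas CSLD1 (LOC_Os10g42750) rose from 1.96 ± 0.594 to 5.73 ± 2.27 CPM. Their sum was 25.9 to 29.1 CPM in the wild type and 8.92 to 16.1 CPM in the mutant. The 3 secondary-wall cellulose synthase genes CESA4, CESA7 and CESA9 (LOC_Os01g54620, LOC_Os10g32980 and LOC_Os09g25490) did not pass (adjusted p from 0.721 to 0.773), and their sum spread over 171 to 439 CPM in the wild type and 216 to 333 CPM in the mutant. Wild-type replicate 1 was the highest and replicate 2 the lowest library for that sum. Of the 24 called members 7 had that wild-type order, LOC_Os07g48020 and LOC_Os03g25370 among them, and 4 had the reverse, with replicate 2 highest and replicate 1 lowest, LOC_Os05g06970 and LOC_Os04g59190 among them. The share over all tested genes was not taken, and a link between the members and that sum was not tested. Of the 5 meristem markers PLT1 rose, a call lost without wild-type replicate 1 or 3 or mutant replicate 2 (adjusted p = 0.0558, 0.0734 and 0.0549), SHR1 and QHB fell and 2 did not pass, with a sum of 170 to 182 CPM in the wild type and 149 to 216 CPM in the mutant. None of these root markers was at 0 in any library, and of the leaf markers LOC_Os12g17600 was at 0 in all 6.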

How the data were processed

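Messenger RNA was measured in 3 wild-type (J10) and 3 mutant (lad) root-tip libraries, grouped by the sample labels. The authors' deposited file is a table of genes by library, taken as raw counts because the values are whole numbers with differing totals. Per the submitters' processing notes, Bowtie 0.12.2 and the mouse builds mm8 and mm9 were used, which cannot apply to rice loci. The counting tool, strand setting and rice annotation are not named in these sources, so reads of overlapping genes on opposite strands cannot be told apart. This concerns 2 of the 84 genes, neither of them called. None of the 84 identifiers occurs in the RefSeq gene table for rice used here, and no sequence is shown.

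All genes were fitted together with edgeR 4.0.16 in R 4.3.3: its expression filter with the group (minimum count 10, 0.528 CPM), TMM factors from 0.924 to 1.04, quasi-likelihood fits on genotype alone, two-sided tests and Benjamini-Hochberg adjustment over 22624 genes. The common biological coefficient of variation was 0.165. Standard errors are the absolute log2 fold change over the square root of F. Alternatives used DESeq2 1.42.0 and limma 3.58.1 voom. The edgeR procedure was run on simulated counts in which a small set of genes was changed by known folds, evenly up and down. That check does not cover the large share of genes called here or the choice of genes by a low wild-type level. No 2 replicates were the same library within counting error (lowest chi-square over its degrees of freedom 8.01), and all 6 were used.

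Members, gene lists and alternatives were chosen with earlier results of these data known. The genes named were the members called higher with a mutant mean of at least 5 CPM, the 6 called lower with the highest wild-type mean, the 3 most abundant that did not pass, any called with 0 wild-type counts (there were 0), and the 3 on each side of the limit. The lists compared were haem peroxidases above the limit, the 7 loci left out, multicopper oxidases and superoxide dismutases, with markers of meristem, secondary wall, mature root, root hair and leaf. Patterns for 7 further lists (dirigent proteins, NADPH oxidases, germins, Casparian strip proteins, extensins, ammonia-lyases, and cinnamoyl or caffeoyl enzymes) matched 0 descriptions.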

Additional observations from a re-analysis of the deposited data

How the results depend on the processing

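The number of members that rose stayed at 14 to 18 and the number that fell at 7 to 12 under every alternative run (3 other scalings, DESeq2, limma-voom, 2 filters, leaving out each library, and the replicate block). All 15 that rose were also called with upper-quartile, DESeq2-factor and library-total scaling, DESeq2, voom, no filter and the replicate block. A filter of 1 CPM in 3 libraries tested 34 members and no longer tested LOC_Os01g22352 and LOC_Os01g18910, and no filter tested 65. The number of members was 83 below 4 CPM and 88 below 6 CPM. Of the 71 tested genes named, none that passed reversed direction in any alternative, and 6 that did not pass changed sign in some. With library totals the log2 changes of LOC_Os01g18890 and LOC_Os01g19020 were 0.048 and 0.0797, and with the 1 CPM filter that of LOC_Os01g19020 was 0.0013. With single libraries left out they ranged from -0.30 to 0.13 and from -0.14 to 0.11, that of LOC_Os06g35480 from -0.031 to 0.305, and those of the secondary-wall genes LOC_Os01g54620, LOC_Os09g25490 and LOC_Os10g32980 from -0.40 to 0.25, -0.44 to 0.25 and -0.43 to 0.22; the cause was not tested. LOC_Os11g10460 and LOC_Os06g48010 passed with DESeq2 (adjusted p = 0.0422 and 0.0341) and without the filter. With voom the log2 change of LOC_Os09g15500 was -3.70 and LOC_Os03g25370 missed the threshold (adjusted p = 0.0553). The count of superoxide dismutases that fell was 0 in place of 1 with library totals, without the filter and with the replicate block, and ranged from 0 to 1 when single libraries were left out; the cause was not tested. Same-numbered libraries of the 2 genotypes deviated with correlations of 0.057, 0.129 and -0.032, so the numbers were not taken to pair the samples. With the replicate block 16 members rose and 8 fell: LOC_Os03g25370 lost its call (adjusted p = 0.0532) and LOC_Os04g53640 gained one (adjusted p = 0.0103). Depth limits the 46 members that were not tested, for which a level below 0.0526 CPM in the wild type cannot be told from 0.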
